A study of Mus musculus with 4 samples.

Results

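The collagen genes are the rows of the deposited expression table whose symbols name a collagen chain, such as Col1a1 or Col17a1. The symbol pattern found 43 of the 22558 listed genes. No measured value entered the pattern, but the family was chosen with earlier results of these data known. Emid2, listed under the older symbol of Col26a1 and so not matched by the pattern, was at 0.751, 0.421, 0.615 and 0.576 FPKM in the control, 3 h, 24 h and 7-day samples and was not counted. Of the 43 genes, 37 had a mean of at least 1 FPKM over the 4 samples and entered the counts. Col25a1, with a mean of 1.35 FPKM, lay just above that limit and Col22a1, with 0.888 FPKM, just below it.

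Every sample came from whole eyes of mice aged 6 weeks that lack both Abca4 and Rdh8, genes that act in clearing all-trans-retinal from photoreceptors, and no sample had another genotype. The control eyes had no light exposure, and the other samples were taken 3 h, 24 h or 7 days after exposure. For every condition the labels name 3 mice, and the table gives 1 FPKM value (mapped fragments scaled to transcript length and library size) per gene and condition, so no difference below has a replicate check or a test. The tissue is labelled whole eye while the extraction text names retinas. Rod, lens and corneal markers were all abundant in every sample, with summed levels of 5349 to 9122 FPKM for rods, 78751 to 88316 FPKM for lens and 3169 to 3665 FPKM for keratocytes. Kera made only 75.1 to 89.6 FPKM of the keratocyte sum.

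Collagens are secreted or membrane proteins in which each of the chains wound into a triple helix repeats a glycine at regular steps. Fibrillar collagens form the load-bearing fibrils of sclera, cornea and vitreous, and network-forming collagens make up basement membranes and Descemet's membrane. Fibril-associated collagens sit on fibril surfaces, type VI collagen builds beaded filaments around cells, and transmembrane collagens stay anchored in the cell surface.

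Collagen transcripts were lower in the 3 h and 24 h samples than in the control, and lay closer to the control at 7 days. The summed level of all 43 genes was 1938 FPKM without light and 1146, 1155 and 1536 FPKM at 3 h, 24 h and 7 days. The light samples were thus at 59.1%, 59.6% and 79.2% of the control sum. The 3 most abundant genes, Col1a1, Col1a2 and Col3a1, held 57.2% of that sum without light and 48.5%, 47.9% and 53.0% in the light samples by time. Without them, the other 40 genes were at 71.1%, 72.5% and 87.1% of their control sum, so the lower level was not carried by those 3 alone. In bulk tissue, fewer collagen-producing cells and less collagen RNA per cell cannot be told apart.

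**Figure D1:**
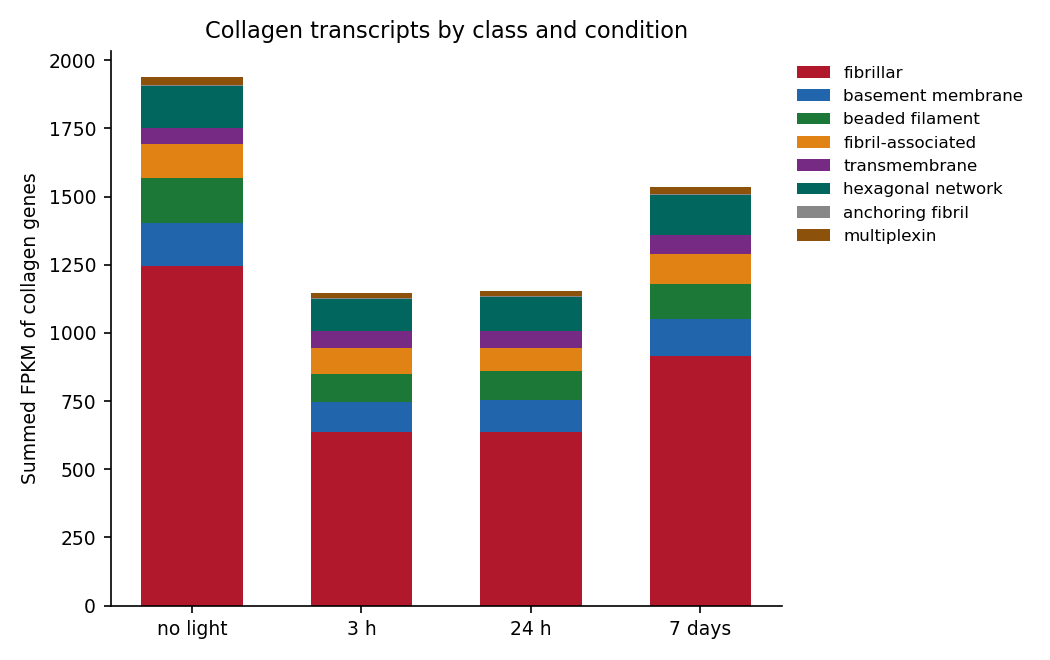
Stacked bars of summed FPKM over collagen genes in each of the 4 samples, coloured by structural class, with 1 value per gene and condition and so no error bars. The fibrillar part (red) goes from 1244 FPKM without light to 637, 635 and 917 FPKM after it and makes most of the difference in height.

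Changes of single genes were counted on the scale of log2 of (FPKM + 1), with a threshold at an absolute change of 1. At 3 h, 3 of the 37 genes were past the threshold downwards, Col1a1, Col3a1 and Col5a1, against 0.240% of all 14194 genes kept. The same 3 were past it at 24 h, against 0.359% of all genes, and none was at 7 days, against 0.190%. No collagen gene was past the threshold upwards at any time, where all genes gave 0.550%, 0.747% and 0.409%. A second count, at a log2 change of -0.5 or lower, was added after the values were seen. It took in 17 of 37 collagen genes at 3 h, 15 at 24 h and 2 at 7 days, against 1.44%, 2.94% and 0.986% of all genes.

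The shift ran through nearly the whole family. At 3 h, 36 of 37 genes were below the control (45.7% of all genes), with a median log2 change of -0.47 against 0.02 over all genes. At 24 h, 34 of 37 were below it (48.6% of all genes), with a median of -0.43 against 0.01. At 7 days, 29 of 37 were below it (49.1% of all genes), with a median of -0.18 against 0.00251. The 3 comparisons share the control sample, so a deviation of that sample would enter all of them.

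**Figure D2:**
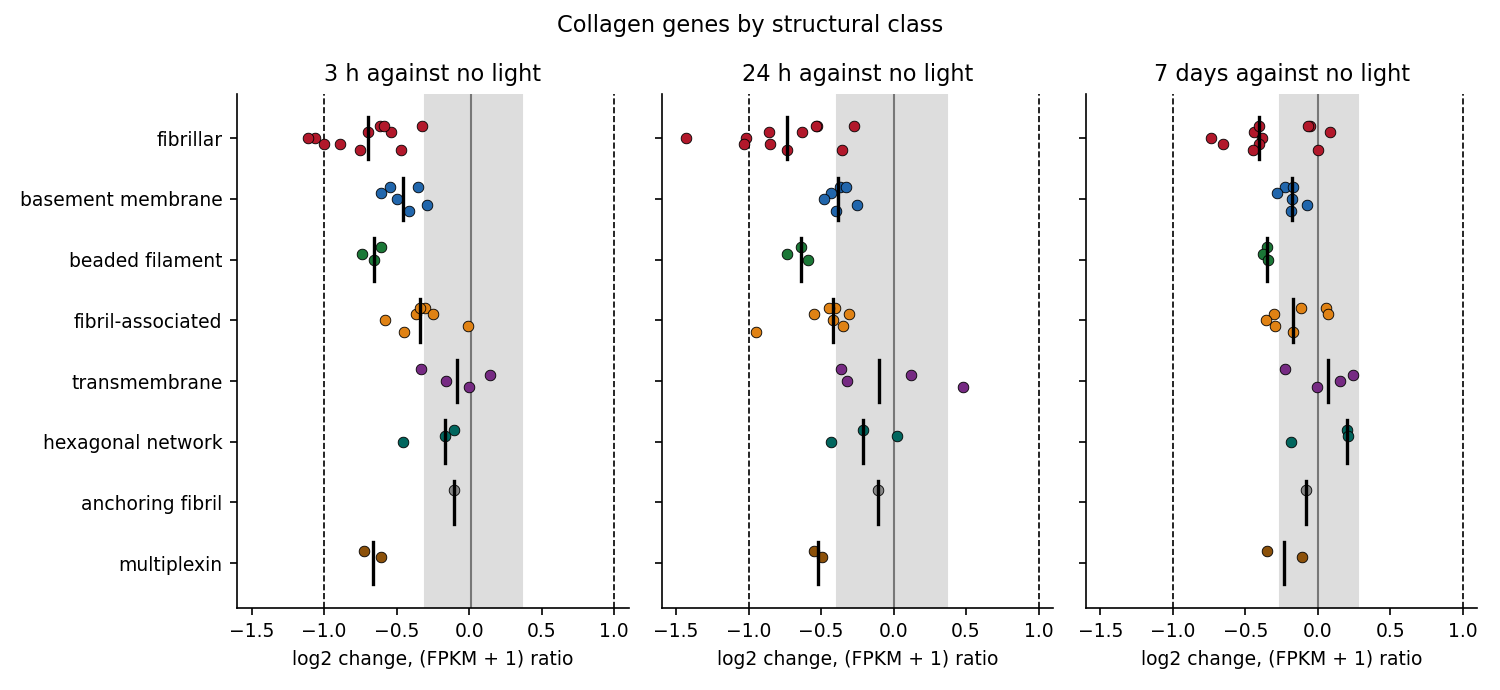
Each point is the log2 change of (FPKM + 1) of 1 collagen gene against the control at 3 h, 24 h or 7 days, in rows by structural class, with a black bar at the class median. The grey band spans the 5th to 95th percentile of all 14194 genes kept, the grey line is their median and dashed lines mark the threshold of 1. All fibrillar and beaded filament points lie left of the band at 3 h, and most points lie inside it at 7 days.

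Fibrillar collagens were the lowest of the large classes. All 11 were kept, all 11 were below the control at 3 h and 24 h, and 9 were below it at 7 days. Their median log2 changes were -0.70, -0.73 and -0.40. Leaving them out, the remaining 26 genes of the family still had medians of -0.36, -0.40 and -0.17.

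Type I collagen, the main fibril protein of sclera and corneal stroma, is built from the products of Col1a1 and Col1a2. Col1a1 was at 468 FPKM without light and at 224, 231 and 358 FPKM 3 h, 24 h and 7 days after it. Col1a2 was at 474, 256, 262 and 357 FPKM in the same order. Both were lowest at 3 h and 24 h, which lay close together, and the 7-day level lay between those and the control. The ratio to the control was 0.478, 0.492 and 0.763 for Col1a1 and 0.539, 0.553 and 0.753 for Col1a2.

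Col3a1, whose type III collagen accompanies type I in distensible tissues and vessel walls, was at 166 FPKM without light and at 76.2, 60.8 and 98.9 FPKM 3 h, 24 h and 7 days after it. It had the lowest ratios to the control of the 37 genes at each time, 0.460, 0.367 and 0.596, and unlike the type I genes it was lower at 24 h than at 3 h. Type V collagen starts fibrils and restrains their diameter, which matters for corneal transparency. Col5a1 was at 26.1, 12.5, 12.3 and 16.2 FPKM, at 0.480, 0.470 and 0.620 of the control. Its partner Col5a2 was at 29.0, 16.8, 17.1 and 21.05 FPKM. Col5a3, a further type V chain, was at 50.9, 33.6, 34.9 and 38.2 FPKM. All 3 type V genes were lower at every time after light, Col5a3 by the least each time.

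The start regions of Col1a2, Col3a1 and Col5a1 are printed for comparison, since all 3 genes were below the control at each time. Col3a1 and Col5a1 were past the threshold at 3 h and 24 h and Col1a2 was not, with log2 changes of -0.89 and -0.85. The windows come from a promoter table of RefSeq genes on GRCm38.p6, a later build than the mm9 used for the expression values, which gives 250 bases before to 50 after a start site. It held 35 of the 43 genes, in 38 windows. Capitals mark matches, on either strand, to 3 short motifs of basal promoters, the TATA box (searched as TATAAA), the CCAAT box (CCAAT) and the GC box (GGGCGG). The Col1a2 window is chr6:4505368-4505667 on the plus strand, the Col3a1 window is chr1:45311288-45311587 on the plus strand, and the Col5a1 window is chr2:27886175-27886474 on the plus strand.
Col1a2: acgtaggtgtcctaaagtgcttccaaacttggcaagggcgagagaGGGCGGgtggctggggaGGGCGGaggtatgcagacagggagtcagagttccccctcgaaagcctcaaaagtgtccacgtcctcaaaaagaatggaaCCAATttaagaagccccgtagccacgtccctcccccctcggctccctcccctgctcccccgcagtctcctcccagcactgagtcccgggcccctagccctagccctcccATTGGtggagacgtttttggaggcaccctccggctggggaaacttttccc
Col3a1: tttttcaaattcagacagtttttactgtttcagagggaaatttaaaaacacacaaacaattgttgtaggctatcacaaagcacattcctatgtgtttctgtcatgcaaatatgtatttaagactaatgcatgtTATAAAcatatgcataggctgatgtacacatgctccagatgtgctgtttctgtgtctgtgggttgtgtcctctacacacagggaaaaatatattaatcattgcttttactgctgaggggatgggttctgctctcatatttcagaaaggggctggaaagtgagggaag
Col5a1: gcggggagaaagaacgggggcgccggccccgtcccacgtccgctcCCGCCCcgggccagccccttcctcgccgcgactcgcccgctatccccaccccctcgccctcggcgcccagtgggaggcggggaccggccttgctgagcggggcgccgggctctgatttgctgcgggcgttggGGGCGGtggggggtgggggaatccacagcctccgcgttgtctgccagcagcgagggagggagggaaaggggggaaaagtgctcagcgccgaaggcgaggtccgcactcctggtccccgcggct
The 3 windows differ widely in base composition, with 61% G and C for Col1a2, 37.7% for Col3a1 and 75% for Col5a1, and no motif was found in all of them. Col1a2 held 2 CCAAT and 2 GC box matches, and Col5a1 held 2 GC box matches. Col3a1 held 1 TATA box match, 117 bases before the start site. Whether any of these matches acts in the promoter was not tested. Over all member windows, 23 of 38 (60.5%) held a GC box, against 35.7% of all 32851 windows. For the CCAAT box the shares were 34.2% and 37.4%, and for the TATA box 13.2% and 13.6%. A GC box is likelier in a window rich in G and C, and the median share of these bases was 59.8% in collagen windows and 52.7% in all windows.

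Type II collagen and its partner type XI form the thin fibrils of vitreous and cartilage, with type IX on their surface. Col2a1 was at 9.63 FPKM without light and at 6.31, 4.87 and 10.2 FPKM 3 h, 24 h and 7 days after it. Col11a1 was at 9.43, 5.81, 6.23 and 9.03 FPKM. Both were low at 3 h and 24 h and close to the control at 7 days. Col11a2 was at 5.95, 3.28, 3.48 and 4.12 FPKM and remained at 0.693 of the control at 7 days. The minor fibrillar genes Col24a1 and Col27a1 stayed at or below 2.43 FPKM in every sample. Col24a1 went from 2.001 FPKM in the control to 1.17, 1.35 and 2.01, and Col27a1 from 2.43 to 1.74, 1.85 and 2.28.

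The genes of types I, III and V and those of types II, IX and XI were also set side by side, a grouping made after the values were seen. The 6 genes of types I, III and V had median log2 changes of -0.95, -0.94 and -0.43 by time, and all 6 were still below the control at 7 days. The 6 genes of types II, IX and XI had medians of -0.49, -0.58 and 0.00131, with 3 of 6 above the control at 7 days. The difference between the groups was not tested. Of the cartilage markers, Acan was at most 0.0783 FPKM and Matn1 at most 0.0211 FPKM in any sample, while Comp was at 14.8 to 18.2 FPKM and Matn3 at 3.37 to 5.06 FPKM.

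**Figure D3:**
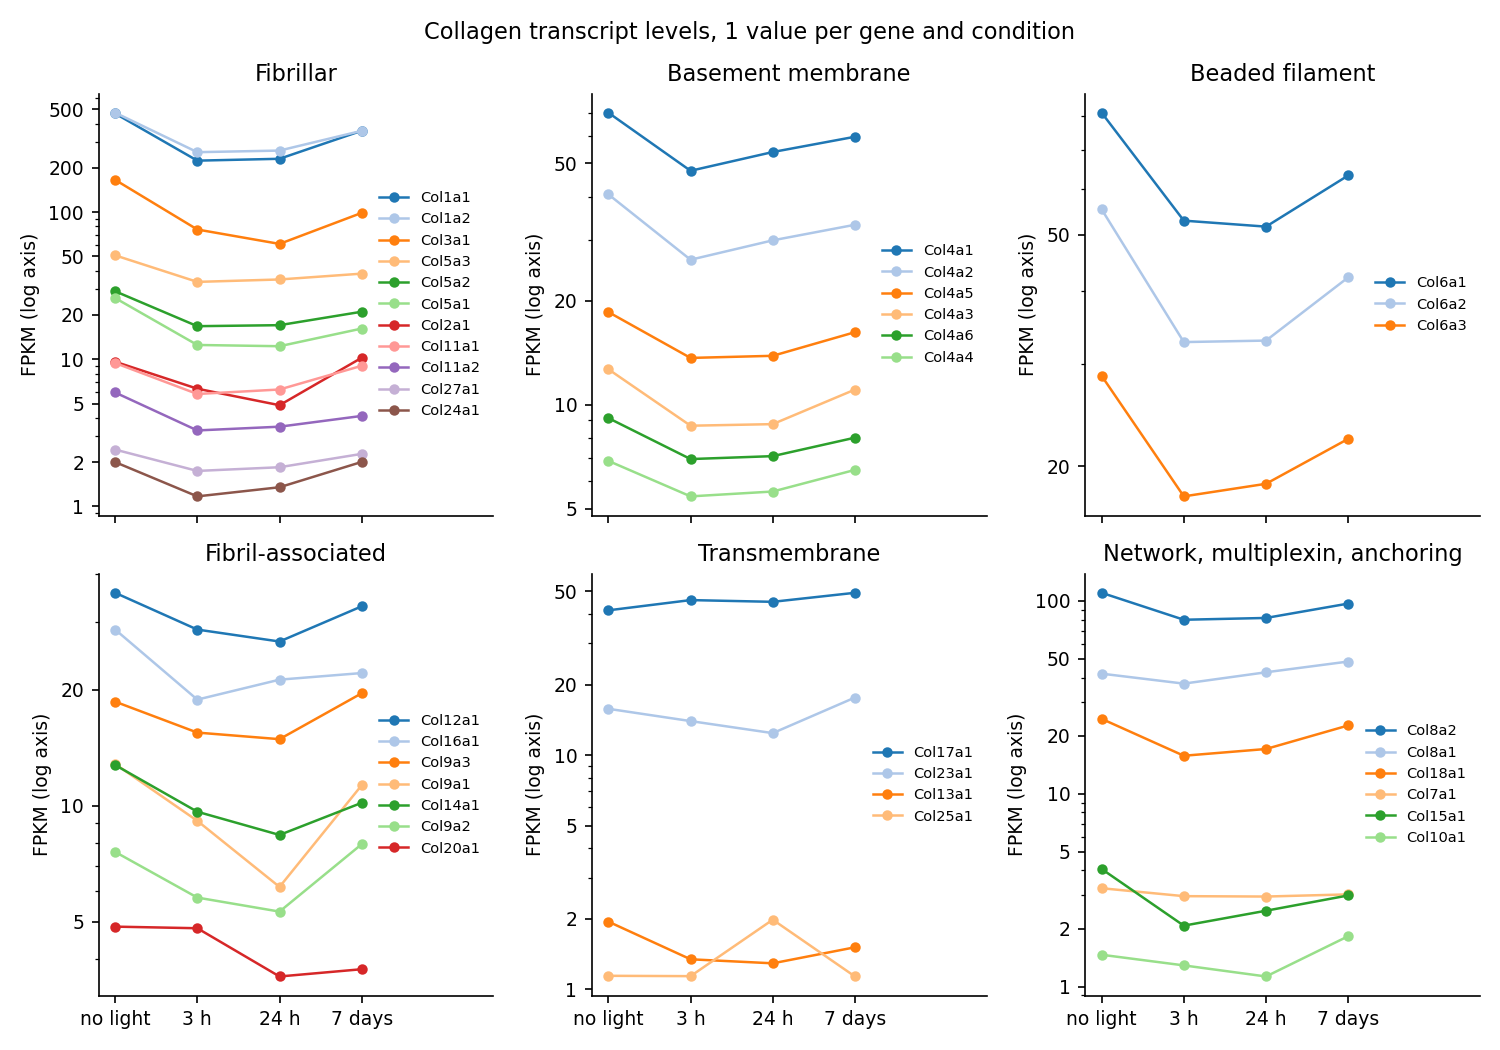
FPKM on log axes for the 37 collagen genes kept, in panels by class, at no light, 3 h, 24 h and 7 days (spaced evenly, not to time), with lines joining the 1 value per condition of each gene. Most lines dip at 3 h and 24 h and turn up at 7 days, while Col17a1 does not dip and Col25a1 peaks at 24 h.

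Basement membrane collagens were lower by less and more evenly. All 6 type IV genes were below the control at each time, with medians of -0.46, -0.38 and -0.18 by time. Col4a1 and Col4a2 encode the chains found in almost all basement membranes, vessels included. Col4a1 was at 70.0 FPKM without light and at 47.5, 53.9 and 59.6 FPKM 3 h, 24 h and 7 days after it. Col4a2 was at 40.6, 26.3, 29.9 and 33.2 FPKM. For both, the lowest sample was 3 h and each later sample was higher than the one before it.

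Col4a3, Col4a4 and Col4a5 encode the network of specialised basement membranes, in the eye those of lens capsule and Descemet's membrane. Col4a3 was at 12.7 FPKM without light and at 8.69, 8.78 and 11.1 FPKM 3 h, 24 h and 7 days after it. Col4a4 was at 6.88, 5.43, 5.61 and 6.48 FPKM. Both were low at 3 h and 24 h alike. Col4a5 was at 18.5, 13.7, 13.9 and 16.2 FPKM, and Col4a6, its partner in a further network, was at 9.15, 6.96, 7.10 and 8.03 FPKM. The ratios to the control at 3 h ran from 0.647 for Col4a2 to 0.789 for Col4a4. Col4a5 and Col4a6 lie on the X chromosome, and their ratios of 0.874 and 0.878 at 7 days lay close to those of the autosomal type IV genes.

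Type IV genes lie in head-to-head pairs whose start sites are close together. The windows of Col4a1 (chr8:11312777-11313076, minus strand, GRCm38.p6) and Col4a2 (chr8:11312555-11312854, plus strand) share 78 bases, and they are printed to show this common start region, with the same motifs in capitals.
Col4a1: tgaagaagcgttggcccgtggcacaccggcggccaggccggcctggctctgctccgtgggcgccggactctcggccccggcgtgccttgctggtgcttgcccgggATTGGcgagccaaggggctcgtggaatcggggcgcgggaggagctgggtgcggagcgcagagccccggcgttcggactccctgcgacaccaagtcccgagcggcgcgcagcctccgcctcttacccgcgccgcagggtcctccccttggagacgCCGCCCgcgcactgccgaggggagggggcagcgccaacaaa
Col4a2: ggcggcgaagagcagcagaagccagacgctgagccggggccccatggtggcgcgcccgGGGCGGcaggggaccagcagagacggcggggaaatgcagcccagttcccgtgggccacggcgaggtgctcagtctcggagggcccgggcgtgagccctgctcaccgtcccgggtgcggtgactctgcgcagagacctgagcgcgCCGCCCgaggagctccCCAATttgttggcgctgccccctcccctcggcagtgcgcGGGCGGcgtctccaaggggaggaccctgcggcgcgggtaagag
The labels do not say whether libraries kept strand, so fragments from shared bases could count for either gene. Each window held a CCAAT box, and the GC boxes numbered 1 in the Col4a1 window and 3 in that of Col4a2. The GC box of the Col4a1 window lies in the shared bases and is the same site as 1 of the 3 in the Col4a2 window. The log2 changes of the pair were -0.55, -0.37 and -0.23 for Col4a1 and -0.61, -0.43 and -0.28 for Col4a2, by time. Col4a6 and Col4a5, the X-linked pair, were close too, with -0.35 and -0.41 at 3 h. The remaining type IV pair, Col4a4 and Col4a3, was less close, with -0.29 and -0.50 at 3 h and -0.25 and -0.48 at 24 h. Some neighbours outside type IV were less alike too. Col3a1 and Col5a2, next to each other on chromosome 1, had log2 changes of -1.43 and -0.73 at 24 h. Col9a1 and Col19a1 had log2 changes of -0.95 and -0.37 at 24 h, but Col19a1 was under the filter. The plain ratios of Col9a1 and Col19a1 to the control at 24 h were close, at 0.480 and 0.512.

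Beaded filament collagen was nearly as low as the fibrillar class. The 3 chains of common type VI collagen, which links cells to the surrounding fibrils, were the only ones of the 6 type VI genes over the filter. Col6a1 was at 81.1 FPKM without light and at 52.9, 51.7 and 63.3 FPKM 3 h, 24 h and 7 days after it. Col6a2 was at 55.3, 32.7, 32.9 and 42.3 FPKM. Col6a3 was at 28.6, 17.8, 18.7 and 22.3 FPKM. All 3 had nearly equal levels at 3 h and 24 h and a partial return at 7 days. Their median log2 changes were -0.66, -0.64 and -0.35. The alternative chains Col6a4, Col6a5 and Col6a6 were at 0.139 to 0.967 FPKM over all samples, and only Col6a6 was below the control at each time (0.967, 0.472, 0.476 and 0.662 FPKM).

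Fibril-associated collagens, 7 of 9 over the filter, were all below the control at 3 h and 24 h and 5 of 7 were below it at 7 days, with medians of -0.34, -0.42 and -0.17. Col9a1, a type IX chain, was at 12.8 FPKM without light and at 9.14, 6.16 and 11.3 FPKM 3 h, 24 h and 7 days after it. It was lowest at 24 h, at 0.480 of the control, and came close to the control at 7 days. Col9a2 was at 7.59, 5.78, 5.31 and 7.95 FPKM, and Col9a3 at 18.6, 15.5, 14.9 and 19.6 FPKM. Both of these partner chains were also lowest at 24 h, at 0.700 and 0.799 of the control, and slightly above the control at 7 days.

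Col12a1 and Col14a1 encode collagens that decorate type I fibrils. Col12a1 was at 35.7 FPKM without light and at 28.7, 26.7 and 32.9 FPKM 3 h, 24 h and 7 days after it. Col14a1 was at 12.8, 9.65, 8.40 and 10.2 FPKM. Their lowest sample, too, was 24 h. Col16a1 was at 28.7, 18.9, 21.3 and 22.1 FPKM, the lowest of the 7 kept genes relative to the control at 3 h (0.658). Col20a1 was at 4.86, 4.81, 3.61 and 3.77 FPKM, so it was close to the control at 3 h and lower in the later samples. Under the filter, Col19a1 was at 0.876, 0.560, 0.448 and 0.494 FPKM and Col22a1 at 1.34, 0.773, 0.521 and 0.918 FPKM, both highest in the control.

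Transmembrane collagens had median log2 changes of -0.08, -0.10 and 0.07 by time over 4 genes. Col17a1, a component of the hemidesmosomes that anchor basal epithelial cells, was at 41.5 FPKM without light and at 45.9, 45.1 and 49.3 FPKM 3 h, 24 h and 7 days after it. It was the only collagen gene above the control in all 3 light samples among the 37 kept, with ratios of 1.11, 1.09 and 1.19. Surface epithelium markers had a summed level of 2528 FPKM in the control and 3161, 2952 and 3141 FPKM in the light samples, most of it from Krt12, a keratin of the corneal epithelium, at 1680, 2171, 2029 and 2151 FPKM. All 5 were above the control at 3 h and at 7 days, but at 24 h Krt15 was below it, at 210.2 FPKM against 244.8 FPKM. The part of these markers in the level of Col17a1 was not tested.

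The Col17a1 start window is printed for contrast with those of the fibrillar genes (chr19:47691993-47692292, minus strand, GRCm38.p6, motifs in capitals).
Col17a1: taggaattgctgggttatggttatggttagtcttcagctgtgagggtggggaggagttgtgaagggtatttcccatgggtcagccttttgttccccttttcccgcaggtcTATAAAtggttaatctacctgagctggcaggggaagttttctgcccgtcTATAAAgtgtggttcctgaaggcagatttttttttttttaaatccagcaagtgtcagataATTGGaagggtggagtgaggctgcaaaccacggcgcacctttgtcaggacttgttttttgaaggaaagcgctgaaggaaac
It held 2 matches to the TATA box, 140 and 91 bases before the start site, 1 to the CCAAT box and none to the GC box. Of its bases, 46.3% were G or C.

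Col23a1 was at 15.8 FPKM without light and at 14.0, 12.4 and 17.6 FPKM 3 h, 24 h and 7 days after it. Col13a1, found at cell adhesion sites and the neuromuscular junction, was at 1.94, 1.34, 1.29 and 1.51 FPKM. Both were lowest at 24 h, at 0.787 and 0.664 of the control. Col25a1, a collagen of neurons, was at 1.14 FPKM without light and at 1.14, 1.98 and 1.13 FPKM 3 h, 24 h and 7 days after it. Its ratio of 1.74 at 24 h was the largest of the 37 genes in any light sample, although the log2 change of 0.48 was under the threshold.

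Col8a1 and Col8a2 encode the hexagonal network of Descemet's membrane, which the corneal endothelium lays down. Col8a2 was at 110.2 FPKM without light and at 79.9, 81.6 and 96.9 FPKM 3 h, 24 h and 7 days after it. Col8a1 was at 42.0, 37.3, 42.7 and 48.5 FPKM. The chains did not move alike, with Col8a2 below the control throughout and Col8a1 above it at 7 days. Slc4a11, a transporter of the corneal endothelium, was at 15.6, 4.12, 5.79 and 8.66 FPKM. Its part in the type VIII levels was not tested. Col10a1, of the same structural class and known from hypertrophic cartilage, was at 1.46, 1.29, 1.13 and 1.82 FPKM.

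The multiplexins lie at the border of basement membranes. Col18a1, the source of endostatin, was at 24.5 FPKM without light and at 15.7, 17.1 and 22.6 FPKM 3 h, 24 h and 7 days after it. Col15a1 was at 4.07, 2.07, 2.47 and 2.97 FPKM. Both were lowest at 3 h, at 0.643 and 0.508 of the control. Col7a1, the anchoring fibril collagen beneath surface epithelia, was at 3.24, 2.94, 2.93 and 3.01 FPKM, within 10% of the control throughout. Col28a1 was at 0.353, 0.369, 0.249 and 0.368 FPKM.

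Ratios between chains that assemble together varied less than the levels did, though not in every pair. FPKM is scaled to transcript length, so these are ratios of levels. Col4a1 over Col4a2 ranged from 1.72 to 1.81 over the 4 samples and Col4a5 over Col4a6 from 1.95 to 2.03. Col6a1 over Col6a3 ranged from 2.77 to 2.98. In these 3 pairs the highest ratio was 1.04 to 1.08 times the lowest. Col1a1 over Col1a2 was 0.988 without light and 0.876, 0.879 and 1.001 after it.

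Wider shifts occurred in other pairs. Col5a1 over Col5a2 was 0.900 in the control and 0.745, 0.719 and 0.768 in the light samples. Col8a2 over Col8a1 was 2.63 in the control and 2.14, 1.91 and 1.998 after light. In both, the control ratio was the highest and the 7-day ratio had not returned to it. Col9a1 over Col9a3 went from 0.689 in the control to 0.590 at 3 h, 0.414 at 24 h and 0.577 at 7 days. Between types, Col3a1 over Col1a1 was 0.354 and 0.340 in the control and at 3 h, and 0.264 and 0.277 at 24 h and 7 days.

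**Figure D4:**
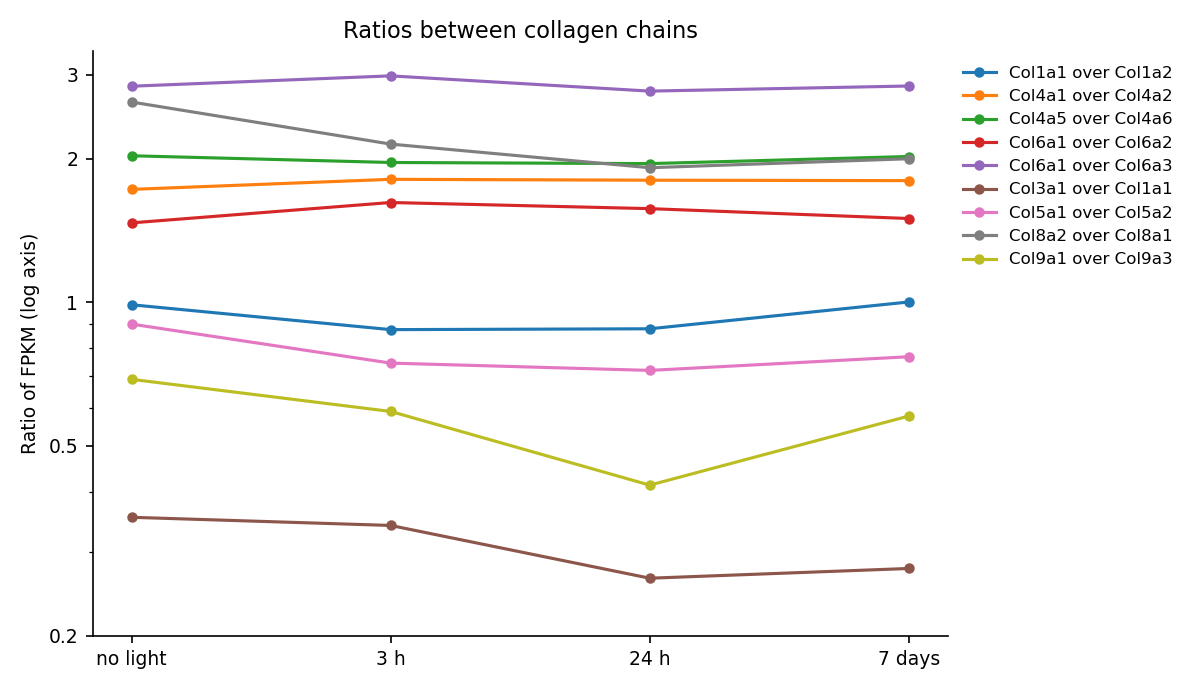
Ratios of FPKM between pairs of collagen genes on a log axis at no light, 3 h, 24 h and 7 days, with 1 value per condition. The lines of Col4a1 over Col4a2, Col4a5 over Col4a6 and Col6a1 over Col6a3 are nearly flat, whereas Col9a1 over Col9a3 dips to 0.414 at 24 h.

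Successive samples showed when the levels differed. From 3 h to 24 h the family had a median log2 change of 0.02 (all genes -0.01), with 15 of 37 genes below 0 (52.5% of all genes). Col9a1 was the only gene at -0.5 or lower, which 3.09% of all genes reached. From 24 h to 7 days the median was 0.25 (all genes -0.01), and 36 of 37 genes were above 0, Col25a1 being the exception. Below 0 lay 51.4% of all genes. The control was the highest of the 4 samples for 28 of 37 collagen genes, against 22.1% of all genes. In 27 of 37 the 7-day level lay below the control and above both earlier samples, against 10.3% of all genes.

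The 7-day sample also differed in sex-linked transcripts. The Y-linked gene Ddx3y was at 0, 0, 0.00528 and 6.59 FPKM in the control, 3 h, 24 h and 7-day samples, and Xist at 47.2, 53.8, 53.8 and 37.1 FPKM. Sex and time therefore cannot be told apart in any comparison of the 7-day sample, the higher collagen levels at 7 days than at 24 h included.

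Genes that modify, process or bind collagen were followed in lists. The folding and modification list, which acts in the endoplasmic reticulum, had medians of -0.03, -0.10 and 0.00099 over 15 of 16 genes, none past the threshold at any time. Serpinh1, the collagen-specific chaperone, was at 121.6 FPKM without light and at 86.2, 91.6 and 116 FPKM 3 h, 24 h and 7 days after it, the lowest log2 change of that list at 3 h (-0.49). P4hb, the shared subunit of prolyl hydroxylase, was at 114.2, 114.4, 121 and 112 FPKM. Ppib, a prolyl isomerase, was at 46.3, 50.1, 54.6 and 61.4 FPKM, and P4ha1, a catalytic prolyl hydroxylase subunit, at 32.3, 32.1, 29.0 and 31.0 FPKM. Of these 4 genes, only Serpinh1 had the low 3 h and 24 h levels of the collagens.

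The list for processing and crosslinking outside the cell was mixed, with medians of -0.31, -0.08 and -0.07 by time over 11 of 13 genes. Lox, the lysyl oxidase that starts crosslinks, was at 13.0 FPKM without light and at 7.40, 5.84 and 9.80 FPKM 3 h, 24 h and 7 days after it, and was the only list gene past the threshold, at 24 h (log2 change -1.03). Loxl1, a family member, was at 35.6, 20.5, 21.6 and 31.4 FPKM. Adamts2, which removes the amino-terminal propeptide of fibrillar procollagens, Lox, Loxl1 and Loxl2 were the 4 genes at -0.5 or lower at both 3 h and 24 h. Loxl4 went the other way, at 1.91, 3.90, 3.84 and 2.02 FPKM. Pcolce, an enhancer of procollagen cleavage, was at 130.0, 101, 123 and 139 FPKM. Bmp1, the carboxy-terminal procollagen proteinase, was at 14.6, 11.5, 16.2 and 13.8 FPKM, and Pcolce2 at 12.0, 15.7, 14.5 and 13.6 FPKM.

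Collagen receptors had medians of -0.20, -0.14 and -0.09 over 8 of 10 genes, none past the threshold. Ddr2, a receptor tyrosine kinase for fibrillar collagen, was at 13.4, 9.62, 10.8 and 11.9 FPKM, and Mrc2, an endocytic collagen receptor, at 11.04, 7.94, 7.92 and 9.84 FPKM. Both were lower after light than before. Itgb1, the shared integrin chain, was at 50.5, 49.6, 47.5 and 48.5 FPKM, and Ddr1, the epithelial family member, at 41.5, 43.4, 50.4 and 51.2 FPKM.

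**Figure D5:**
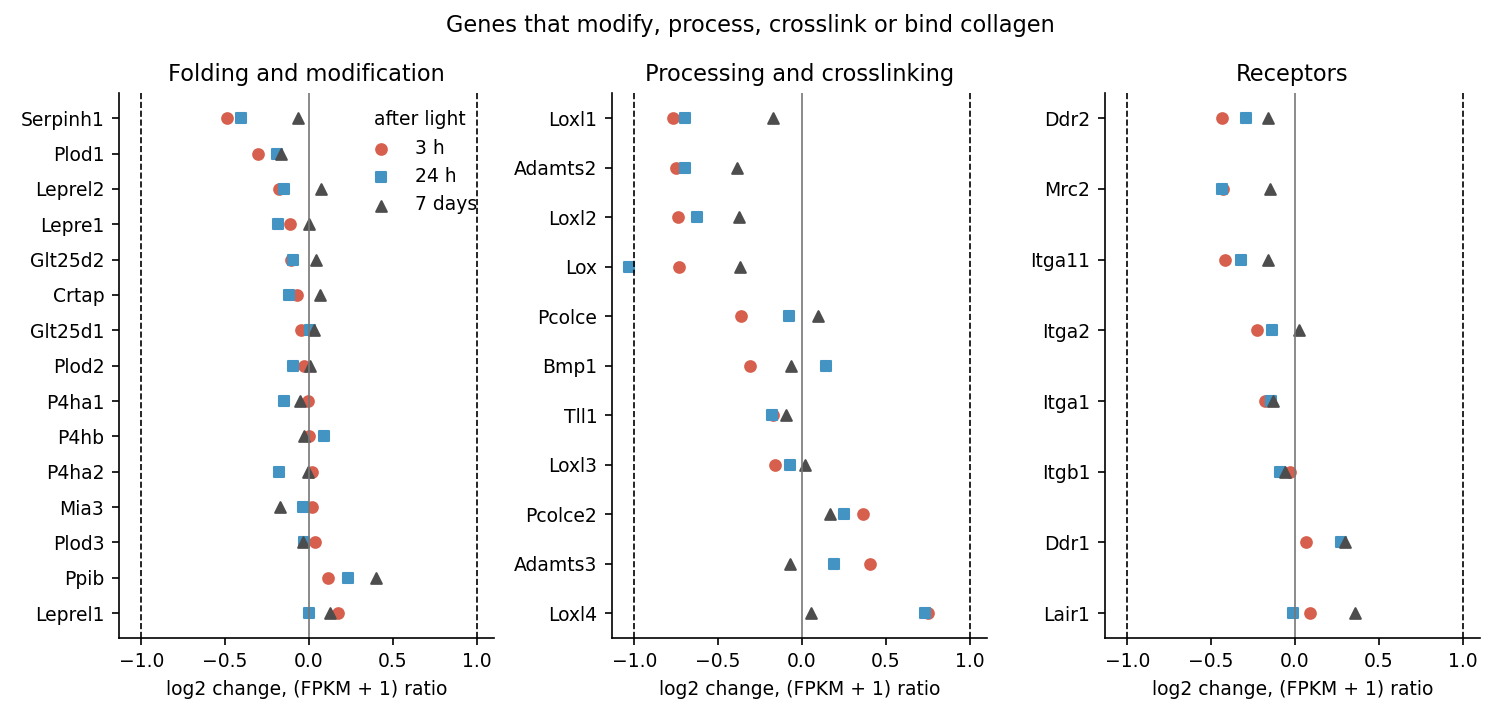
Log2 changes of (FPKM + 1) against the control for the kept genes of the 3 lists, with circles for 3 h, squares for 24 h and triangles for 7 days, and dashed lines at the threshold of 1. Lox, Loxl1, Loxl2 and Adamts2 sit at -0.626 or lower at 3 h and 24 h, while most folding genes lie close to 0.

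By their medians, fibroblast and vessel markers lay nearer to the control than the fibrillar collagens did. Some single markers were nonetheless lower than the fibrillar median at 3 h or 24 h. Fibroblast markers summed to 1028 FPKM without light and 1009, 972 and 1111 FPKM after it. Of the 8, 6, 6 and 5 were below the control, against 45.7%, 48.6% and 49.1% of all genes. The fibroblast medians were -0.08, -0.18 and -0.09. Dcn made most of the fibroblast sum, at 768, 760, 728 and 846 FPKM, while Twist2 was at 3.26, 1.87, 2.01 and 2.31 FPKM. Vessel markers summed to 152, 124, 138 and 161 FPKM, with 8, 8 and 5 of 9 below the control, against the same shares of all genes. The vessel medians were -0.41, -0.28 and -0.06. They lay nearer to those of the type IV genes, -0.46, -0.38 and -0.18, than to the fibrillar medians. Skeletal muscle markers summed to 1492, 1672, 983 and 1283 FPKM. Muller glia markers summed to 1040, 1093, 614 and 1173 FPKM, and pigment epithelium markers to 434, 467, 386 and 456 FPKM. The part of these markers in the collagen levels was not tested, nor was that of rod markers, which summed to 9122, 7607, 5349 and 5763 FPKM. Collagen transcripts are long, with a lower quartile of 5104 bases among the collagen genes kept. Among 2806 other genes with a transcript of at least that length the median log2 changes were 0.01, -0.03 and -0.04. The part of transcript length in the collagen levels was not tested.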

How the data were processed

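Transcripts were measured in 4 samples of whole eye. FPKM values were deposited by the authors, 1 per gene and condition. The submitters' processing notes name Cuffdiff 2.2.1, TopHat2 (version given as 2) and bcl2fastq 1.8.3, with the mm9 build, and the series design adds Cufflinks. Annotation, library scaling and strand are not given in these sources. The labels give 1 sample of 3 mice per condition, whereas the series design speaks of sequencing in triplicate, so it could not be settled if the mice were pooled before sequencing or averaged after it.

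Changes were computed in Python 3.11.15 (pandas 2.3.3) as log2 of (FPKM + 1) ratios, which understates changes of low genes. Printed ratios are plain FPKM ratios. Genes with a mean of at least 1 FPKM were kept (14194), and a log2 change of 1 in size was the threshold. The calculation was tested on simulated data. With 1 value per condition no test was run. Collagen genes with a mean of at least 5 FPKM (28) or past the threshold were to be named with every value, as were the 4 most abundant genes of each list and those past the threshold. Others are named for completeness. 1 gene of the marker lists is not reported here. The family, classes and lists were chosen with earlier results of these data known.

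Depth was read roughly from olfactory receptor genes above 0 in a single sample, taken as 1 fragment each. The estimates were 2.39e+07, 2.28e+07, 3.03e+07 and 4.18e+07 fragments in the control, 3 h, 24 h and 7-day samples, from 16, 14, 17 and 20 genes. On that scale the counting error was at most 5.09% for collagen genes with a mean of at least 5 FPKM and at most 10.4% for all 37 kept. It covers counting only, not the spread between animals. Alternatives were another pseudocount, other filters and other scalings. Transcript lengths are from GENCODE M21, and all 43 symbols matched RefSeq.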

Additional observations from a re-analysis of the deposited data

Results flagged for a closer look

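In 3 collagen genes the light samples lay on opposite sides of the control by at least 0.1 log2 units, and none of these differences was tested. Col10a1 had log2 changes of -0.11 at 3 h, -0.21 at 24 h and 0.20 at 7 days. Col23a1 had -0.16, -0.32 and 0.15 in the same order. Col8a1 had -0.17 at 3 h and 0.20 at 7 days, with 0.02 at 24 h. In each of them the 7-day sample was the one above the control by that much, and it also differs in sex-linked transcripts.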

How the results depend on the processing

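No paired analysis was possible because each condition has 1 value. With no replicate spread, a median counted as unchanged within 0.1 log2 units, a limit chosen for this purpose. The counts of collagen genes past the threshold (3, 3 and none lower, none higher) stayed within 1.5 times, and the family medians stayed within that limit, with a pseudocount of 0.1, with no filter, with a mean of at least 5 FPKM and under both rescalings. No value past the threshold changed sign. Col8a1 at 24 h, close to the control at 0.02, became -0.02 when rescaled to the sum without abundant genes. No other value that was followed changed sign under these settings. Those followed were the family and class medians and single genes with a mean of at least 5 FPKM. The sign was not checked for lower genes, such as Col24a1 with 0.00221 at 7 days. Nor was it checked for the 7-day median of types II, IX and XI, at 0.00131. Without a filter the beaded filament medians became -0.51 at 3 h and -0.50 at 24 h and the fibril-associated median at 7 days became -0.29, since low genes enter. With a mean of at least 5 FPKM the fibrillar medians became -0.82 at 3 h and -0.85 at 24 h and the transmembrane median at 7 days became 0.20, since low genes leave. The rescalings moved the 3 h values by -0.03 (median ratio) and -0.07 log2 units (sum without abundant genes). The lack of replicates limits every comparison.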
